A study of Caenorhabditis elegans with 2 samples.

Results

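The genes described here are 35 Caenorhabditis elegans genes whose products act in synaptic vesicles, at the active zone or in growing and transporting axons, out of 19973 nuclear protein-coding genes of the WBcel235 (ce11) annotation. They were chosen by name: 15 synaptic vesicle genes, 7 active zone genes, 12 axon outgrowth or transport genes, and rgef-1, a neuronal guanine nucleotide exchange factor for Ras, which stands alone. The study mapped by ChIP-seq where the Sp-type transcription factor SPTF-1 lies on the genome of embryos. There was a single group of 2 biological replicates. The worms were of strain OP707, which carries the unc-119(tm4063) allele on III and the wgIs707 transgene, the source of an SPTF-1 protein with GFP and FLAG at its C terminus. They were whole embryos of mixed stages, males and females pooled, taken 2.5 hours after synchronization by egg bleaching. Since chromatin came from whole embryos, a region cannot be assigned to neurons or to any other cell type. The labels name the antibody in one field as anti-GFP and in another as sptf-1. The sources used here do not give the allele's extent or the transgene's full content, and unc-119 is itself a gene of the list.

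A neuron releases transmitter when synaptic vesicles, carried down the axon by kinesin motors, dock and fuse at the active zone. SNARE proteins and their regulators drive fusion, active zone scaffolds hold vesicles beside calcium channels, and endocytic proteins then recover the membrane. Axon outgrowth genes code for the cytoskeletal, adaptor and signalling proteins that build the process along which this traffic runs. Sp family factors bind GC-rich boxes and CACCC-like sequences in promoters. Many C. elegans messages are trans-spliced, so an annotated 5′ end need not be the place where transcription starts.

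The authors deposited, for ce11, a thresholded list of 2430 regions and 3 full lists of 30000 regions each, for both replicates pooled, replicate 1 and replicate 2. The full lists hold background as well as peaks, by the authors' own naming. Each region has a summit position and a signal value, the authors' measure of its strength. The scale of the signal differs from list to list, so lists are compared by rank, with rank 1 the strongest. The thresholded regions were the 2430 strongest of the pooled list, with a lowest signal value of 218.9, and the first region left out had 218.7. Read depth is unknown, so no value here carries a counting error of reads.

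Of the 35 genes, 7 had a thresholded summit in a promoter window, defined as 1000 bp before to 500 bp after any annotated 5′ end of a protein-coding transcript (20%, exact 95% interval 8.44 to 36.9%), against 8.26% of all protein-coding genes. They were the active zone genes syd-2 and unc-2, the axon genes unc-73 and unc-76, the synaptic vesicle genes aex-3 and unc-26, and rgef-1. In addition, 6 genes, namely unc-41, unc-33, unc-104, syd-1, unc-51 and again unc-2, had a thresholded summit in an intron and outside their promoter windows (17.1%, interval 6.56 to 33.7%), against 2.00% of all genes. Either kind was present at 12 genes (34.3%, interval 19.1 to 52.2%), against 9.91% of all genes, and 23 genes had neither. Intervals are Clopper-Pearson intervals and cover the number of genes only. No test was made, since the genes were picked with earlier results of these data known.

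These genes offer more sequence to a summit than most. Their median gene length was 8.50 kb with 3 annotated 5′ ends and 3.16 kb of intron outside promoter windows, against 2.03 kb, 1 and 0.464 kb for all genes. All 7 genes with a promoter summit were among the 28 with more than 1 annotated 5′ end, where the share of all such genes was 13.2%. None of the 7 genes with a single 5′ end had one, where the share of all such genes was 6.51%. Among genes with at least 3 5′ ends, 4 of 19 listed genes had a promoter summit, against 17.6% of all. Per 100 kb, the promoter windows of the listed genes held 6.15 thresholded summits, against 4.18 in the windows of all genes, and their introns 3.44 against 1.93. With at least 3 5′ ends, 5 of 19 listed genes had an intron summit, against 7.58% of all, and 8 of 19 had either kind, against 23.6%. With a single 5′ end, 1 of 7 had an intron summit, against 1.08%. The excess over all genes in promoter and in intron summits was thus smaller per base than per gene. It was also smaller among genes with at least 3 5′ ends than over all genes. The counts rest on 7 promoter and 7 intron summits.

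By role, a promoter summit was present at 2 of 7 active zone genes (28.6%, exact interval 3.67 to 70.96%), 2 of 12 axon genes (16.7%, interval 2.09 to 48.4%) and 2 of 15 synaptic vesicle genes (13.3%, interval 1.66 to 40.5%). An intron summit was present at 2 of 7 active zone genes, 3 of 12 axon genes (25%, interval 5.49 to 57.2%) and 1 of 15 synaptic vesicle genes (6.67%, interval 0.169 to 32.0%). The intervals of the 3 groups overlap widely for both kinds, so an order among the roles cannot be read at this number of genes.

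**Figure D1:**
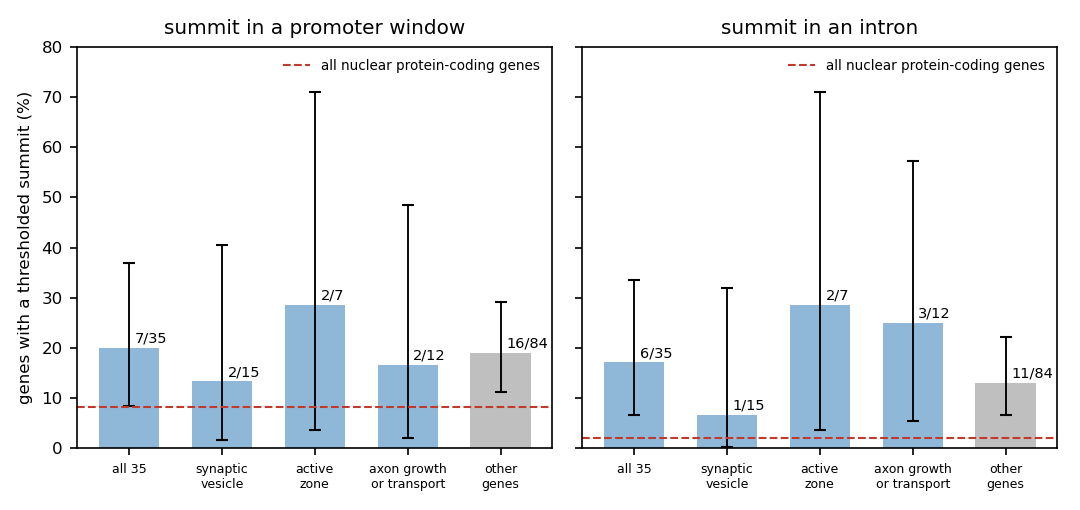
Percentage of genes with a thresholded summit in a promoter window (left) or in an intron outside promoter windows (right). Bars are for all 35 listed genes, for the 3 role groups and for 84 other genes of the same or related processes, with exact 95% intervals. The dashed line is the share of all protein-coding genes. The bars of the role groups lie within one another's intervals.

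The windows around 6 of the 7 promoter summits are shown because they mark the sites described here; the sequences are from the RefSeq WBcel235 genome (ce11), 201 bases centred on the summit, on the strand of the gene. Capitals mark 4 motifs on either strand. These are the GC box GGGCGG, a looser form of it, GGGNGG, in which N is any base, the CACCC box, and a stretch that recurred among the sequences, GCGTCTC. Where matches overlap, the capitals merge.
syd-2 promoter, chrX:10555611-10555811, minus strand: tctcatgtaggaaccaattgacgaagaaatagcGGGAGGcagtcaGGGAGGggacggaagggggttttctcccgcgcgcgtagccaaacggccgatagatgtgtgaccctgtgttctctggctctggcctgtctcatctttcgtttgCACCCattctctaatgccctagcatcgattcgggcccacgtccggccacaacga
unc-2 promoter of isoform q, chrX:2731495-2731695, minus strand: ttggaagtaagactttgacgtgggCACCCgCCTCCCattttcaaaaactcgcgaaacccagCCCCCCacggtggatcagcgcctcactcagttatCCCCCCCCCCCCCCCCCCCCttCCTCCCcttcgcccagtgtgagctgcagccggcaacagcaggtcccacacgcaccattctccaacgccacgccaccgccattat
aex-3 promoter, chrX:760621-760821, minus strand: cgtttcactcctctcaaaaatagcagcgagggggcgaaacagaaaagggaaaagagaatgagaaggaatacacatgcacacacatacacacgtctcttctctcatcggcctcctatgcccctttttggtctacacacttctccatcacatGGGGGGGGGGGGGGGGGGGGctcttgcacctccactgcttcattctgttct
unc-76 promoter, chrV:15071341-15071541, plus strand: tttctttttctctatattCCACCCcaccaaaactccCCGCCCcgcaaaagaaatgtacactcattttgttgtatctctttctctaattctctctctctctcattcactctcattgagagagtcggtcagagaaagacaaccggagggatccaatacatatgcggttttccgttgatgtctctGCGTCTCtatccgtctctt
unc-26 promoter, chrIV:13272629-13272829, minus strand: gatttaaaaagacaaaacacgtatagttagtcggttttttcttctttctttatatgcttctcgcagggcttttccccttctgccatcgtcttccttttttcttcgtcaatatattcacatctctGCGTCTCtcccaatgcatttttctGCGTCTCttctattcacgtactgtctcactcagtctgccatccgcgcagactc
rgef-1 promoter, chrV:9561909-9562109, minus strand: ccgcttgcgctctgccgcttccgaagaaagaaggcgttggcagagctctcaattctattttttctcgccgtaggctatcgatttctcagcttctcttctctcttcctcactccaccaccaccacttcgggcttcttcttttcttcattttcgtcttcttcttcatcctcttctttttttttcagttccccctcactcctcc

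GGGNGG occurred in 5 of the 7 promoter windows, those of syd-2, unc-73, unc-2, aex-3 and unc-76, against 36.6% of all 1333 summits in promoter windows and 14.1% of 29304 windows of the same length around annotated 5′ ends. CACCC occurred in 4 of 7, those of syd-2, unc-73, unc-2 and unc-76, against 23.9% and 13.5%. The full GC box GGGCGG, whose matches are also matches of GGGNGG, was found at unc-76 only, against 15.2% and 5.01%. At aex-3 all GGGNGG matches lay in a run of 20 G, and at unc-2 most lay in a run of 20 C, seen on the gene's strand. Runs of at least 10 G or C, looked for after these were seen, occurred in 2 of the 7 windows, against 3.75% of all summits in promoter windows and 0.468% of 5′ end windows. The letters GCGTCTC, also looked for after they were seen, occurred in 3 of 7, at unc-73, unc-76 and, 2 times, at unc-26, against 12.9% and 2.27%. The rgef-1 window held none of these letters. The median GC content of the 7 windows was 52.2%, against 45.3% for all summits in promoter windows and 36.3% for 5′ ends; whether base composition sets these shares was not tested.

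Among the active zone genes, syd-2 codes for liprin-alpha, a scaffold needed to assemble the presynaptic site. Its promoter region had the highest signal of the 7. The thresholded signal was 536.2 (rank 398), and the signal was 309.4 (rank 376) in replicate 1 and 230.5 (rank 455) in replicate 2. The replicates placed it at nearly the same rank, with summits 3 bp and 35 bp away. The summit at chrX:10555711 lay 472 bp upstream of the nearer annotated 5′ end and 765 bp upstream of the other, and so in the windows of both. It also lay inside F59F5.9, an annotated non-coding RNA gene on the same strand, and binding at the promoter of syd-2 and at that gene cannot be told apart.

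unc-2 codes for the pore subunit of the presynaptic voltage-gated calcium channel and spans 52607 bp with 8 annotated 5′ ends in 7 promoters, where 5′ ends less than 500 bp apart were joined. Its promoter summit did not lie at the outermost promoter. It lay at chrX:2731595, 31931 bp downstream of the outermost 5′ end and 169 bp upstream of the 5′ end of a single transcript, isoform q, and in no other window of the gene. The thresholded signal was 358 (rank 875), with 210.7 (rank 793) in replicate 1 and 143.6 (rank 1142) in replicate 2. For 12 of the 15 transcripts the same summit is intronic. The 3 outermost promoters and the promoter of isoforms b, f, g, h and i had no region in any full list. A second summit, at chrX:2713171 near the 3′ end of the gene, lay in an intron of 14 of the 15 transcripts and 12461 bp downstream of the last 5′ end. Its thresholded signal was 269 (rank 1531), with 153 (rank 1589) in replicate 1 and 133 (rank 1349) in replicate 2. Both unc-2 sites were thus within the strongest 2430 of each replicate.

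Of the synaptic vesicle genes, aex-3 codes for a guanine nucleotide exchange factor of the vesicle GTPase RAB-3. Its summit at chrX:760721 lay 987 bp and 989 bp upstream of its annotated 5′ ends, close to the far edge of the window. In the thresholded list its signal was 343 (rank 937), with 202.5 (rank 857) in replicate 1 and 138.8 (rank 1231) in replicate 2, and the replicate summits lay within 1 bp. unc-26 codes for synaptojanin, a phosphoinositide phosphatase that uncoats endocytosed vesicles. Its summit at chrIV:13272729 lay 213 to 218 bp upstream of all 3 of its 5′ ends, which form 1 promoter. The region had a thresholded signal of 254 (rank 1730), with 143 (rank 1855) in replicate 1 and 113.7 (rank 1902) in replicate 2. Both genes have a single promoter, so no choice between promoters arises.

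Of the axon genes, unc-73 codes for a guanine nucleotide exchange factor of axon guidance, and has 5 promoters. Its summit, 883 bp upstream of the 5′ end of isoform a and 995 bp upstream of that of isoforms b and i, belonged to the outermost promoter. The thresholded signal was 375.9 (rank 788), with 206.2 (rank 826) in replicate 1 and 159.3 (rank 926) in replicate 2. The 4 internal promoters had regions below the threshold only, the strongest at isoform d, at rank 3142 in the pooled list, 2509 in replicate 1 and 5961 in replicate 2. unc-76 codes for an adaptor needed for axon outgrowth and bundling, and has 4 promoters. Its summit at chrV:15071441 lay 319, 432 and 435 bp upstream of the 5′ ends of isoforms f, b and a, the outermost promoter. Its thresholded signal was 267.4 (rank 1547), with 153.7 (rank 1563) in replicate 1 and 108.3 (rank 2118) in replicate 2. The next promoter inward, that of isoform c, followed at pooled rank 4037, and at 4996 and 3239 in replicates 1 and 2. In both genes the outermost promoter was the strongest in every list.

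rgef-1, often used as a pan-neuronal marker gene, had the weakest promoter summit of the 7. It lay 335 bp and 338 bp upstream of its 5′ ends, at chrV:9562009. Its signal in the thresholded list was 223.4 (rank 2297), close to the lowest thresholded value, with 125.3 (rank 2611) in replicate 1 and 92.82 (rank 3093) in replicate 2. It was outside the strongest 2430 regions of both replicates, and was the only promoter summit of the 7 of which this holds for either.

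**Figure D2:**
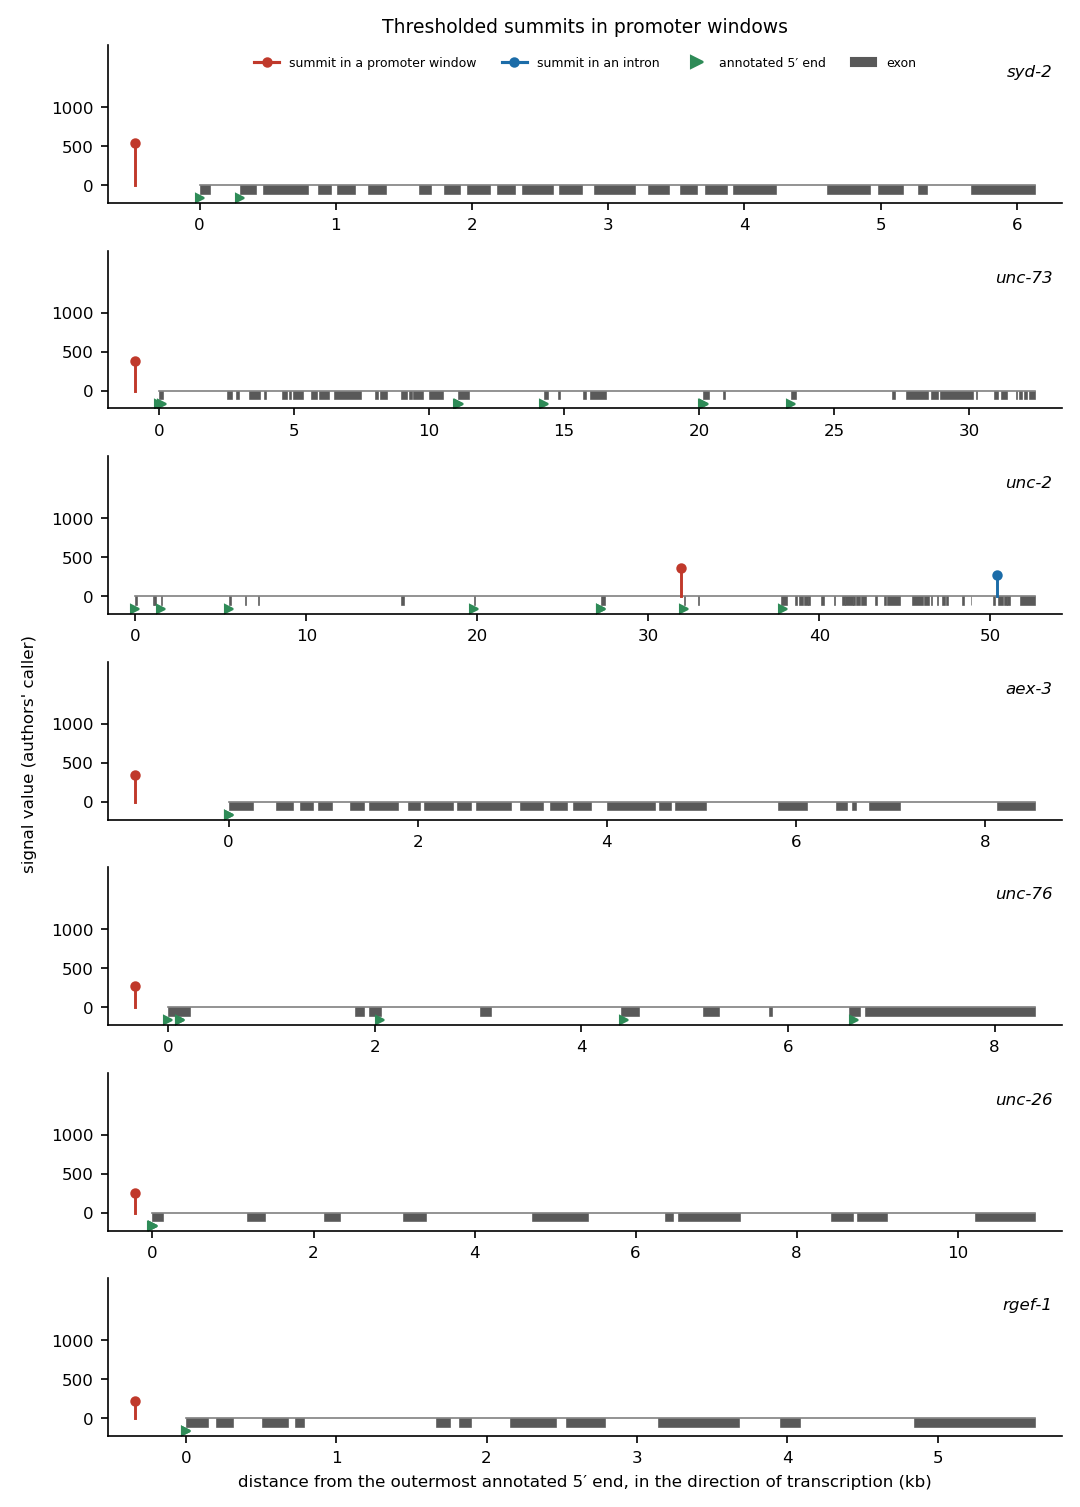
Thresholded summits at the 7 genes with a promoter summit, along each gene in kb from the outermost annotated 5′ end; stem height is the authors' signal value, triangles are annotated 5′ ends and boxes exons of protein-coding transcripts. The promoter summit lies before the outermost 5′ end in 6 genes and 31931 bp inside unc-2.

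All 7 promoter summits lay upstream of the nearest annotated 5′ end, at a median of 335 bp, against 200 bp upstream over all 1333 summits in promoter windows, of which 87.6% were upstream. The median signal of the 7 was 343, between 223.4 and 536.2, against 313.2 over all summits in promoter windows. None of the 7 lay in a promoter window of another protein-coding gene. None was within 200 bp of a small RNA gene (tRNA, snRNA, snoRNA or miRNA), against 8.48% of all summits in promoter windows. Of the 7 genes, 3, namely syd-2, unc-2 and aex-3, are on X, as are 8 of the 35 listed genes (22.9%), against 13.7% of all genes.

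In introns, the 3 strongest summits of the list stood beside or inside small RNA genes or a relic of one. Their windows are shown for that reason, chosen after their values were seen, from the RefSeq WBcel235 genome (ce11), 201 bases centred on the summit on the strand of the gene. Capitals mark the part of the annotated small RNA gene or tRNA pseudogene inside the window. The summits are intronic, but all 3 windows also reach into an exon of the gene, which is not marked.
unc-41 intron with snoRNA gene C27H6.5, chrV:9970224-9970424, minus strand: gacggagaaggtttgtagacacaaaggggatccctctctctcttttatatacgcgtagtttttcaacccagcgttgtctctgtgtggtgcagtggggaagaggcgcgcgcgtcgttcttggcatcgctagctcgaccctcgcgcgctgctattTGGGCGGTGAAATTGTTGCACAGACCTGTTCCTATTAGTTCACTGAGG
unc-33 intron with tRNA gene M57.t1, chrIV:3524699-3524899, plus strand: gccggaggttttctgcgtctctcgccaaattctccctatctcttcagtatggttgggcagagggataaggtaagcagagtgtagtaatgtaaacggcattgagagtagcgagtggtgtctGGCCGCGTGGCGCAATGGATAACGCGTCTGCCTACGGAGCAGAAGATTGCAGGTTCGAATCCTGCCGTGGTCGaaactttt
unc-104 intron with tRNA pseudogene C52E12.t1, chrII:7001545-7001745, plus strand: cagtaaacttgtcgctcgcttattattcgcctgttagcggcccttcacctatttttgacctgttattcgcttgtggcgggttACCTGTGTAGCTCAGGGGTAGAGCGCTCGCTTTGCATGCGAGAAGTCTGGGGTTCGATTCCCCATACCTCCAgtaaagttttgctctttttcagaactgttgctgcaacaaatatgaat

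unc-41 codes for the worm stonin, an endocytic adaptor that recovers synaptotagmin, and its intron summit had the highest signal of all 14. The thresholded signal was 1317.1 (rank 59), with 809.3 (rank 44) in replicate 1 and 515.6 (rank 75) in replicate 2. It lay at chrV:9970324, in an intron of all 3 transcripts and 1551 bp downstream of the nearest 5′ end, 53 bp from the snoRNA gene C27H6.5 (chrV:9970204-9970271, same strand). The promoter windows of unc-41 held no region in the pooled list or in replicate 2, and 1 region in replicate 1 at rank 15770.

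unc-33 codes for a CRMP protein that organizes axonal microtubules, and had 2 intron summits. The stronger, at chrIV:3524799, had a thresholded signal of 711.9 (rank 226), with 405.4 (rank 227) in replicate 1 and 307.5 (rank 244) in replicate 2. It lay 20 bp from the tRNA gene M57.t1 (chrIV:3524819-3524891, same strand) and 13 bp from the non-coding RNA gene Y37E11C.3 on the other strand. Its replicate 2 summit lay 55 bp away, inside the tRNA gene, while that of replicate 1 was at the same base. The weaker summit, at chrIV:3521950, had a signal of 297.9 (rank 1230), with 189.7 (rank 987) in replicate 1 and 117.1 (rank 1759) in replicate 2, and lay 8 bp from the non-coding RNA gene M57.3. Both are in introns of all 3 transcripts, downstream of every annotated 5′ end.

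unc-104 codes for the kinesin that carries synaptic vesicle precursors along the axon. Its intron summit at chrII:7001645 had a thresholded signal of 710.2 (rank 228), with 426.1 (rank 211) in replicate 1 and 285.7 (rank 276) in replicate 2. It lay inside the tRNA pseudogene C52E12.t1 (chrII:7001627-7001698, same strand), in the intron of all 3 transcripts. A summit within 200 bp was rare at tRNA pseudogenes, at 5 of 209 (2.39%), against 240 of 612 nuclear tRNA genes (39.2%) and 76 of 346 snoRNA genes (22.0%). The letters GTTCNANNC, the core of the B box of tRNA genes, were looked for after the tRNA genes were seen. They occurred in 2 of the 7 intron windows, those of the stronger unc-33 summit and of the unc-104 summit. Both windows hold a whole tRNA gene or tRNA pseudogene, so a match was likely beforehand and is no sign of enrichment. The letters occurred in 13.7% of all nuclear summit windows and 6.48% of 5′ end windows.

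The other intron summits were weaker. syd-1 codes for a protein that acts with SYD-2 in presynaptic assembly. Its summit at chrII:7593460 lay 1452 bp downstream of the outermost 5′ end, in intron 2 of isoform a, and 1574 bp upstream of the next promoter, that of isoform c, inside the non-coding RNA gene F35D2.16. The thresholded signal was 257.2 (rank 1686), with 148.9 (rank 1702) in replicate 1 and 107.2 (rank 2165) in replicate 2. unc-51 codes for an ULK-type kinase of axon outgrowth and autophagy. Its summit at chrV:20002555, in intron 2, had a signal of 221.6 (rank 2350), with rank 3020 in replicate 1 and a signal of 102.8 (rank 2392) in replicate 2. It was near the lowest thresholded value and outside the strongest 2430 regions of replicate 1.

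**Figure D3:**
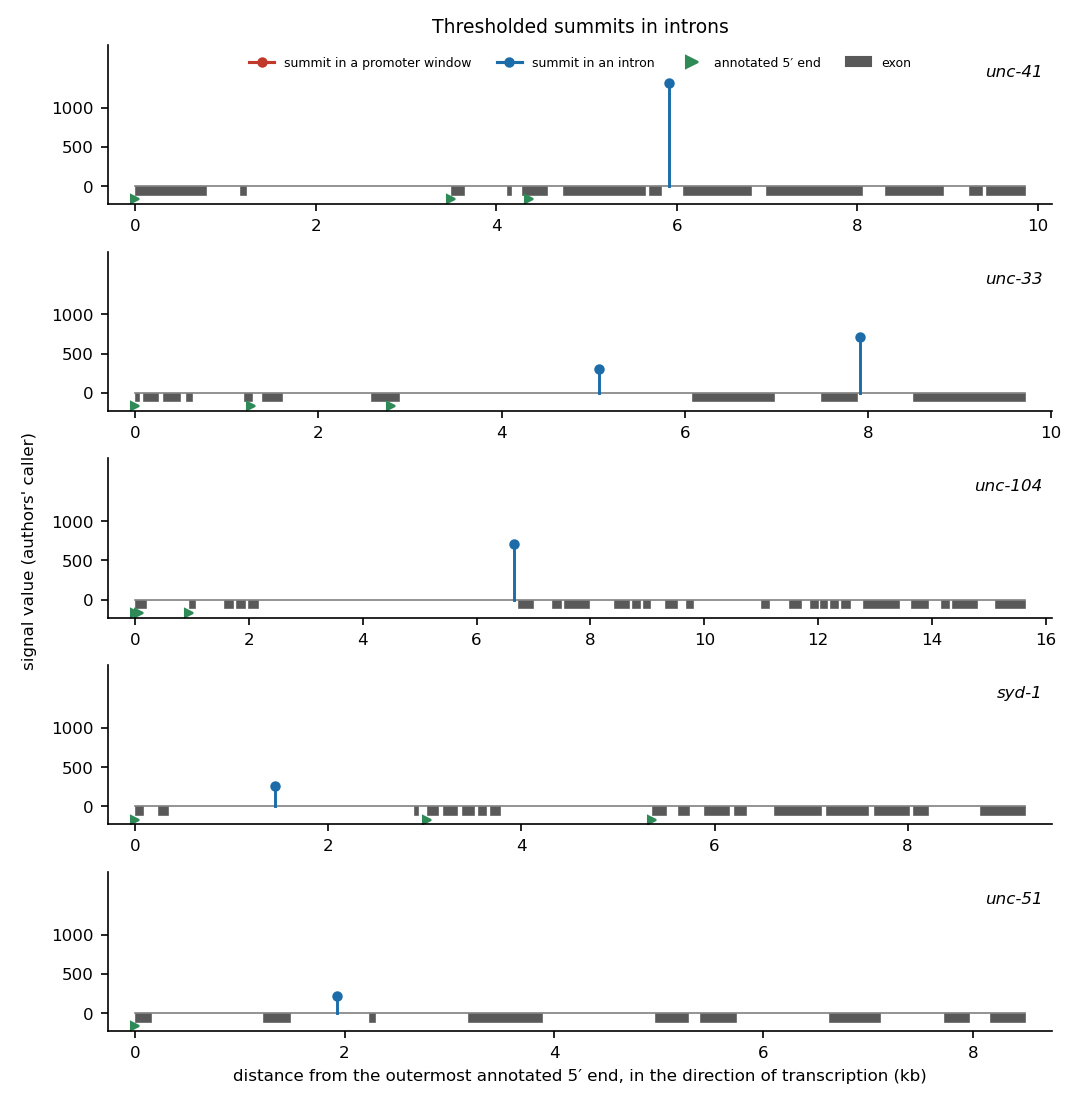
Thresholded summits in introns of unc-41, unc-33, unc-104, syd-1 and unc-51, along each gene in kb from the outermost annotated 5′ end; stem height is the authors' signal value, triangles are annotated 5′ ends and boxes exons. The summit of unc-41 reaches 1317.1, those of unc-104 and the stronger of unc-33 about the same height (710.2 and 711.9), and those of syd-1 and unc-51 are 257.2 and 221.6.

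Over the 7 intron summits the median signal was 297.9, against 290.9 over all 468 intron summits outside every promoter window. Of the 7, 2 (28.6%) were within 200 bp of a small RNA gene, close to the 25.4% of all 468. Intron summits beside small RNA genes had a median signal of 526.4 in the whole list, and all other intron summits 270.7. The unc-41 and stronger unc-33 summits lay above the first of these medians, and the unc-104 summit, inside a pseudogene not counted as a small RNA gene, lay above both. The share of all summits near other non-coding RNA genes, such as those at syd-2, unc-33 and syd-1, was not counted. Whether such neighbours are unusual is therefore not known.

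The thresholded list was itself made from both replicates, so that its regions recur in them is partly a matter of selection. Of the 14 promoter and intron summits, 12 were within the strongest 2430 regions of both replicates, the exceptions being rgef-1 and unc-51, against 69.9% of all thresholded regions. In 27 of 28 cases the replicate's own summit lay within 40 bp of the thresholded one, against 81.9% over all thresholded regions, and the largest distance was 55 bp, at unc-33. Without that selection, 22 genes had a promoter region in both full replicate lists, and the strongest ones had summits within 100 bp of each other in 15 of the 22. Of all genes, 40.1% had a promoter region in the full list of replicate 1 and 41.5% in that of replicate 2. The shares of all genes with one in both lists, or with summits that close, were not counted, so the 22 and the 15 have no comparison. With the strongest 2430 regions of a single replicate in place of the thresholded list, the promoter count stayed at 7 in replicate 1 and at 7 in replicate 2, against 7.97% and 8.49% of all genes. rgef-1 was missing from both. In replicate 1 it was replaced by dyn-1, at rank 2211, which codes for the dynamin that cuts endocytic vesicles free. In replicate 2 it was replaced by unc-16, at rank 1473, which codes for a kinesin cargo adaptor. The other replicate gave dyn-1 rank 7867 and unc-16 rank 7825, so each rests on 1 replicate. The intron count was 6 in each, against 2.14% and 1.91% of all genes. In replicate 1, unc-51 was replaced by sad-1, at rank 2299 (chrX:13489970), which codes for a kinase of presynaptic differentiation. In replicate 2 the strongest sad-1 intron region was another one, at chrX:13498660 and rank 3315, so sad-1 also rests on 1 replicate.

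Of the 28 genes without a thresholded promoter summit, 19 had a region in a promoter window below the threshold, and 9 had none in the pooled list. Over the full lists a promoter region was present at 26 of 35 genes pooled, 25 in replicate 1 and 25 in replicate 2, against 39.8%, 40.1% and 41.5% of all genes. Intron regions were present at 19, 19 and 20 genes, against 18.6%, 18.9% and 19.1%. Among the strongest 5000 pooled regions 13 genes had one in a promoter window, against 13.6% of all genes, and among the strongest 10000, 20 genes, against 21.3%. These shares were not set per base or split by number of 5′ ends, and the listed genes offer more sequence than most. The signal of the 19 ran from 70.75 to 214.5, with a median of 135.5.

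The strongest of the 19 was at an axon gene, followed by the synaptic vesicle genes dyn-1 and rab-3. unc-44, the ankyrin of the axonal membrane skeleton, had signal 214.5 at pooled rank 2543, just under the threshold, with ranks 3223 and 2926 in replicates 1 and 2, all at its outermost promoter. Among the axon genes, unc-16, unc-33 and unc-116, the kinesin heavy chain, followed at pooled ranks 3395, 3558 and 3565. jip-1, another kinesin adaptor, stood at 6087, unc-14, which acts with UNC-51 and UNC-16, at 7942, unc-119 at 8945, unc-104 at 9540 and unc-51 at 21806. rpm-1, a ubiquitin ligase that limits axon and synapse growth, had no promoter or intron region in any list.

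Of the synaptic vesicle genes, dyn-1 stood at pooled rank 2762 (signal 207), and rab-3, the vesicle GTPase, at 3301 (signal 192.9). sng-1, a vesicle membrane protein of the synaptogyrin family, was at 5067, the clathrin adaptor gene unc-11 at 8304 and unc-31, which primes dense core vesicles, at 8779. snb-1, the vesicle SNARE synaptobrevin, was at 18284 in the pooled list, 7378 in replicate 1 and 12528 in replicate 2. tom-1, the fusion inhibitor tomosyn, was at 24168 pooled and 5558 in replicate 2, with no region in replicate 1. unc-18, the syntaxin-binding protein, was at 28695 pooled and 11758 in replicate 1, with no region in replicate 2. ric-4, a plasma membrane SNARE, had a promoter region in replicate 2 only, at rank 22463. unc-64, which codes for syntaxin, had none in its window, although a thresholded summit lay 1180 bp upstream of it (signal 361.8, rank 854). snt-1, the calcium sensor synaptotagmin, and unc-57, the endocytic protein endophilin, had neither a promoter nor an intron region in any list.

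Of the active zone genes, unc-10, the scaffold RIM, stood at pooled rank 16052 and the promoter of syd-1 at 24892, with no region in replicate 2. unc-13, which primes vesicles for fusion, had no promoter region in any list, and its strongest intron region was at pooled rank 14351. sad-1 had none in a promoter window either, with 7 intron regions in the pooled list. The strongest of them, at chrX:13498463 and rank 2826, was not at the site that led in replicate 1. unc-36, an auxiliary calcium channel subunit, had no region of either kind in any list, unlike the pore subunit gene unc-2. These genes differ in size, with 52607 bp and 7 promoters at unc-2 and 7375 bp and 2 promoters at unc-36. A second gene with a thresholded summit just outside its window was unc-44, at 1201 bp upstream (signal 339.4, rank 950).

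**Figure D4:**
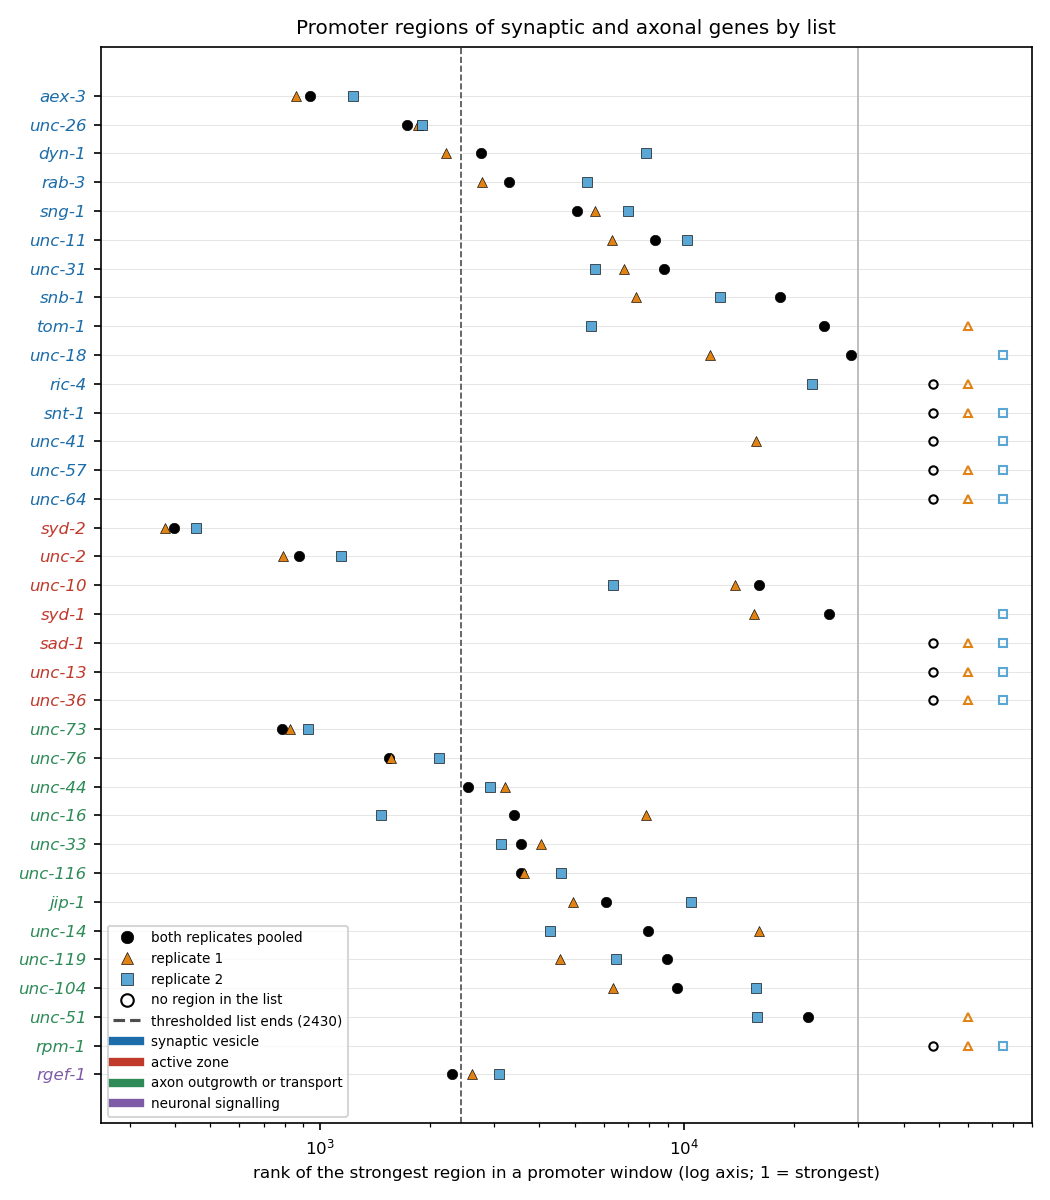
Rank of the strongest region in a promoter window for each of the 35 genes, in the pooled list (circles), replicate 1 (triangles) and replicate 2 (squares), on a log axis; open symbols at the right are lists with no such region, the dashed line is rank 2430, and label colours give the role. The 7 genes left of the line in the pooled list span ranks 398 to 2297, and snt-1, unc-57, unc-64, sad-1, unc-13, unc-36 and rpm-1 have open symbols in all 3.

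Alternative promoters could be compared at 19 genes with at least 2 promoters. In the pooled list, 14 of them had a promoter region, and the strongest was at the outermost promoter in 8 and at an internal one in 6. Replicate 1 gave 7 and 7, and replicate 2 gave 8 and 6. Of 12 genes with a promoter region in all 3 full lists, 9 had the same strongest promoter in each. In a further gene, unc-119, the strongest region of replicate 1 lay in the windows of 2 promoters, 1 of which led in the other lists. The same counts were not made over all genes with at least 2 promoters, so these have no comparison. Each gene has 1 outermost promoter and 1 or more internal ones, so the split does not measure a preference.

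rab-3 is an example of an internal one. Its strongest region lay 561 bp upstream of the 5′ end of isoform b, 3123 bp inside the gene, at pooled rank 3301 and at ranks 2786 and 5397 in replicates 1 and 2. The outer promoter, that of isoform a, had a region in replicate 2 only, at rank 18749. In jip-1 the internal promoter of isoforms b and e was the strongest in every list, at ranks 6087, 4936 and 10406. In unc-119 it was that of isoform a, at pooled rank 8945 and rank 6497 in replicate 2, and in replicate 1 the region at rank 4551 also lay in the window of isoform b. The replicates differed at unc-31, where the internal promoter of isoforms d, e and s led in replicate 1 (rank 6816) and the outermost one in replicate 2 (rank 5669). They also differed at unc-33, where the outermost promoter led in replicate 1 (rank 4043) and that of isoform c in replicate 2 (rank 3133). Apart from unc-2, every internal promoter that led did so below the threshold.

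Of 84 other genes of the same or related processes, 16 had a thresholded promoter summit (19.05%, exact interval 11.3 to 29.1%), against 8.26% of all genes. An intron summit was present at 11 (13.1%, interval 6.72 to 22.2%), against 2.00% of all genes. Both shares were close to those of the 35. The 84 were listed by role, but with earlier results of these data known. The gene lengths and numbers of 5′ ends of the 84 were not set against those of all genes. The promoter count was 3 of 20 for genes grouped with the active zone, 8 of 40 for axons and 5 of 24 for synaptic vesicles. The active zone group was drawn broadly and takes in unc-7, unc-9 and egl-19, so its share does not describe the active zone alone. The highest signals were 558.7 at lin-7, 327.4 at cla-1 and 305.3 at ptp-3 for the active zone. For axons they were 498 at unc-115, 414.1 at sax-7 and 324.8 at klc-1, whose summit is within 200 bp of a small RNA gene. For synaptic vesicles they were 508.2 at apa-2, 453.7 at nsf-1 and 411.3 at unc-108. Only lin-7 of these 9 exceeded the 536.2 of syd-2. The summits at lin-7, klc-1 and sam-4 lay nearer to a 5′ end of another protein-coding gene. With each summit given to the nearest 5′ end only, 13 of the 84 kept one (6.26% of all genes), and the 35 kept all 7.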

How the data were processed

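SPTF-1 ChIP-seq regions from 2 biological replicates were used as the authors deposited them for ce11; the ce10 lists were not used. Per the deposited file listings, the authors called regions from aligned reads together with a control file, and thresholded them by irreproducible discovery rate (IDR). The aligner, caller, cutoff and depth are not given in the sources used here. Each deposited region has a signal value from the authors' caller and a −log10 q value, which 1725 of 2430 thresholded regions share at its highest level (2.019), so ranks rest on the signal.

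The 35 genes, the list of 84 other genes (1 further name was not matched) and their role groups were chosen with earlier results of these data known. Summits were set against Ensembl release 115 transcripts in promoter windows of 1000 bp upstream to 500 bp downstream, and in introns outside all exons and promoter windows of the gene. Summits planted at known distances served to check the counting. All listed genes are named, those with a thresholded summit in full, and at most 3 others per role by signal. Sequences are from the RefSeq WBcel235 genome. Alternatives covered window, threshold, gene assignment, replicates, small RNA genes and, chosen after seeing the data, RefSeq transcripts. Scripts ran under Python 3.11.15 with SciPy 1.17.1 for intervals, NumPy 2.4.6 for ranks and matplotlib 3.10.9 for plots.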

Additional observations from a re-analysis of the deposited data

How the results depend on the processing

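Across 58 alternatives, 51 counts stayed within 1.5 times the value reported. Each of the 3 role groups gave 10 of the alternatives and started from 2 genes, where a rise to 3 still counts as within 1.5 times. Their genes are also among the 35, so the 58 are not independent. With only the thresholded regions above the list's median signal, 4 of 35 genes had a promoter summit (4.80% of all genes, against 8.26% with all regions) and 3 an intron summit (1.04% of all genes, against 2.00%), with 1 synaptic vesicle gene, 1 axon gene and 10 of the 84 other genes having a promoter summit. With 500 bp upstream in place of 1000 bp, 5 genes had a promoter summit (6.44% of all genes); aex-3 and unc-73 were lost, leaving 1 synaptic vesicle and 1 axon gene. With 2000 bp the count was 10 (10.9% of all genes), with syd-1, unc-44 and unc-64 added. Leaving out either replicate gave 7 promoter and 6 intron genes each time. Summits in the strongest 2430 regions of both replicates gave 6 and 5 (6.19% and 1.42% of all genes), and RefSeq transcripts 7 and 6 (8.12% and 2.03%). No paired analysis was possible because there is 1 group. With 7 genes or summits per class, shares of single roles are known only within wide intervals, and with depth unknown a missing region is not shown to be unbound.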
